A study of Mus musculus with 6 samples.

Results

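Cadherins and non-clustered protocadherins are calcium-dependent adhesion proteins, and 43 genes of this kind were read from a transcriptome of the mouse telencephalon. They were chosen by symbol alone, as the numbered Cdh and Pcdh genes, Celsr1 to Celsr3, Fat1 to Fat4 and Dchs1, out of 24444 genes in the deposited table. Dchs2 was not analysed here. The table compares telencephalon of embryos labelled Arl13b-/- with telencephalon of Wild-type embryos, with 3 libraries in each genotype, all labelled as strain C57BL/6J at E12.5. Arl13b encodes a ciliary GTPase, and the series asks how neuronal primary cilia bear on axon tracts. The labels do not name the Arl13b allele, and no treatment or transgene is given for either genotype. Whether each library is a separate embryo is not stated either, so a p-value here speaks only of the spread among these 6 libraries, and that spread may be technical.

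Classical cadherins bind the same or a related cadherin on a neighbouring cell and are tied to actin inside the cell through catenins. The type I group holds E-, P-, N- and R-cadherin, and N-cadherin joins neuroepithelial cells at the ventricular surface. Type II cadherins are expressed in combinations that mark brain regions and neuron groups, and delta protocadherins act in cell sorting, axon growth and synapses. Celsr proteins belong to the planar cell polarity pathway, and Celsr2 and Celsr3 act in axon tract formation, while Fat4 and Dchs1 form a receptor and ligand pair.

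The values are variance-stabilised counts, on a scale close to log2, and were turned back to normalized counts for each library. Each library held between 27558187 and 51688908 reads, as estimated from the value of 1 read. Arl13b itself had 492, 532 and 564 normalized counts in Arl13b-/- 1 to 3, against 661, 553 and 560 in Wild-type 1 to 3. The groups overlapped, so Arl13b counts are no check of the labels, on which each direction rests. Arl13b-/- 2 and Wild-type 1 stood apart from the other 4 libraries in cell type markers. The summed count of 12 maturing neuron markers was 194221 in Arl13b-/- 2 and 42872 in Wild-type 1, against 11086 to 12542 in the other 4. The sum of 14 radial glia and cell cycle markers was 4442 in Arl13b-/- 2 and 48726 in Wild-type 1, against 147703 to 183584 in the other 4. Hbb-y, an embryonic globin gene, had 0 normalized counts in Arl13b-/- 2 and 397 in Wild-type 1, against 33298 or more in the other 4. Whether these 2 libraries are of the labelled stage was not tested. Markers of the labelled tissue were present, since the 12 dorsal telencephalon markers summed to between 20200 and 76196 in every library, but Neurog1, a dorsal progenitor marker, was at 0 in Arl13b-/- 2, and the ventral list summed to 1373 there, against at least 14339 elsewhere. Comparisons are therefore given over all 6 libraries and, without these 2, over 4, a choice made with earlier results of these data known.

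The 4 libraries also differed in regional and sex-linked markers. The dorsal telencephalon markers summed to 23765 and 20200 normalized counts in Arl13b-/- 1 and 3, against 31927 and 39495 in Wild-type 2 and 3. Emx1, a transcription factor of the developing cortex, had 145 and 25.0 in Arl13b-/- 1 and 3, against 875 and 1161 in Wild-type 2 and 3. The 12 diencephalon markers summed to 27891 and 34334 in Arl13b-/- 1 and 3, against 19437 and 21242 in Wild-type 2 and 3. Dorsal markers were thus lower and diencephalic ones higher in the Arl13b-/- pair, and their part in the 4-library differences was not tested. Xist, transcribed from the inactive X chromosome, had 16292, 244 and 19017 in Arl13b-/- 1 to 3, against 15101, 26.5 and 213 in Wild-type 1 to 3. The Y-linked Ddx3y had 0, 0 and 1.24 in Arl13b-/- 1 to 3, against 0.537, 1093 and 1258 in Wild-type 1 to 3. Sex and genotype therefore cannot be told apart in any 4-library result, and Arl13b-/- 2 had neither high Xist nor Ddx3y.

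**Figure D1:**
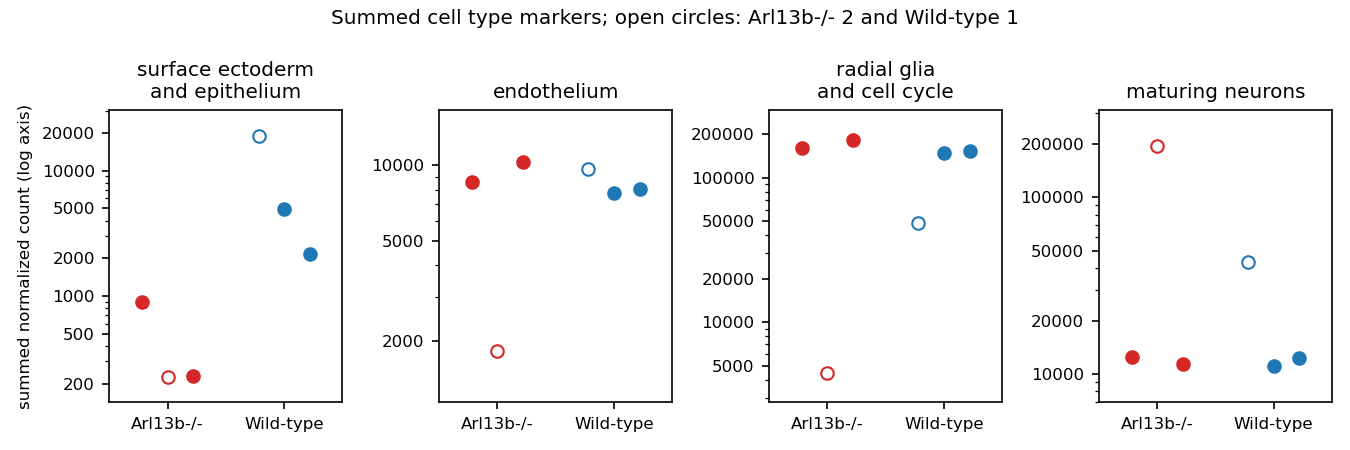
Summed normalized counts of 4 cell type marker lists by library, on log axes, with Arl13b-/- libraries on the left and Wild-type libraries on the right of each panel. Open circles are Arl13b-/- 2 and Wild-type 1; Arl13b-/- 2 had 4442 counts of radial glia and cell cycle markers and 194221 of maturing neuron markers.

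Of the 43 members, 39 passed a filter on low values and were tested together with all 14249 genes that passed it. The 4 that did not pass were Cdh16, Cdh17, Cdh19 and Cdh26. Cdh16, a kidney cadherin, was at 0 in all 6 libraries, and the highest single value among the other 3 was 42.3 normalized counts, for the gut cadherin Cdh17 in Wild-type 1. No tested member passed an adjusted p of 0.05 in limma in either comparison. Over all 6 libraries 0 genes of the whole table passed (0%), and over 4 libraries 36 did (0.253%), 10 higher (0.0702%) and 26 lower (0.182%).

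At an unadjusted p under 0.05 over 4 libraries, 4 tested members were higher in Arl13b-/- (10.3% of those tested, against 8.08% of all genes) and 8 were lower (20.5%, against 6.33%). The 4 higher ones were Pcdh8, Cdh20, Cdh8 and Cdh22, and the 8 lower ones were Cdh1, Cdh3, Cdh11, Pcdh1, Pcdh9, Pcdh19, Celsr1 and Fat2. Fat2 passed the filter only through its high value in Wild-type 1, and without it 7 of 38 members (18.4%) were lower. The groups did not overlap for 13 higher members (33.3%, against 29.3% of all genes). The same held for 13 lower ones, Fat2 among them (33.3%, or 12 and 31.6% without Fat2, against 18.1%). Over all 6 libraries, 2 members were lower at an unadjusted p under 0.05 (5.13%, against 1.03% of all genes) and 0 were higher, against 0.112%. The groups did not overlap for 4 lower members, Fat2 among them (10.3%, or 3 and 7.89% without Fat2, against 3.59%), and for 0 higher ones, against 4.67%. The median difference of the tested members, Arl13b-/- minus Wild-type, was 0.038 over 4 libraries, beside 0.023 for all genes tested. Over 6 libraries it was -0.15, beside 0.0026, but 0.061 without Wild-type 1 and 0.053 with library weights.

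Of the members, 7 passed when Arl13b-/- 1 was left out of the 4 libraries, which sets Arl13b-/- 3 alone against Wild-type 2 and 3 and assumes that it varies like them. In that setting 725 of all genes passed (5.09%), and the 7 were 17.9% of the members tested. They were Cdh3, Cdh5, Cdh20, Pcdh8, Pcdh18, Pcdh19 and Celsr2. With any other of the 4 libraries left out, 0 members passed in limma.

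**Figure D2:**
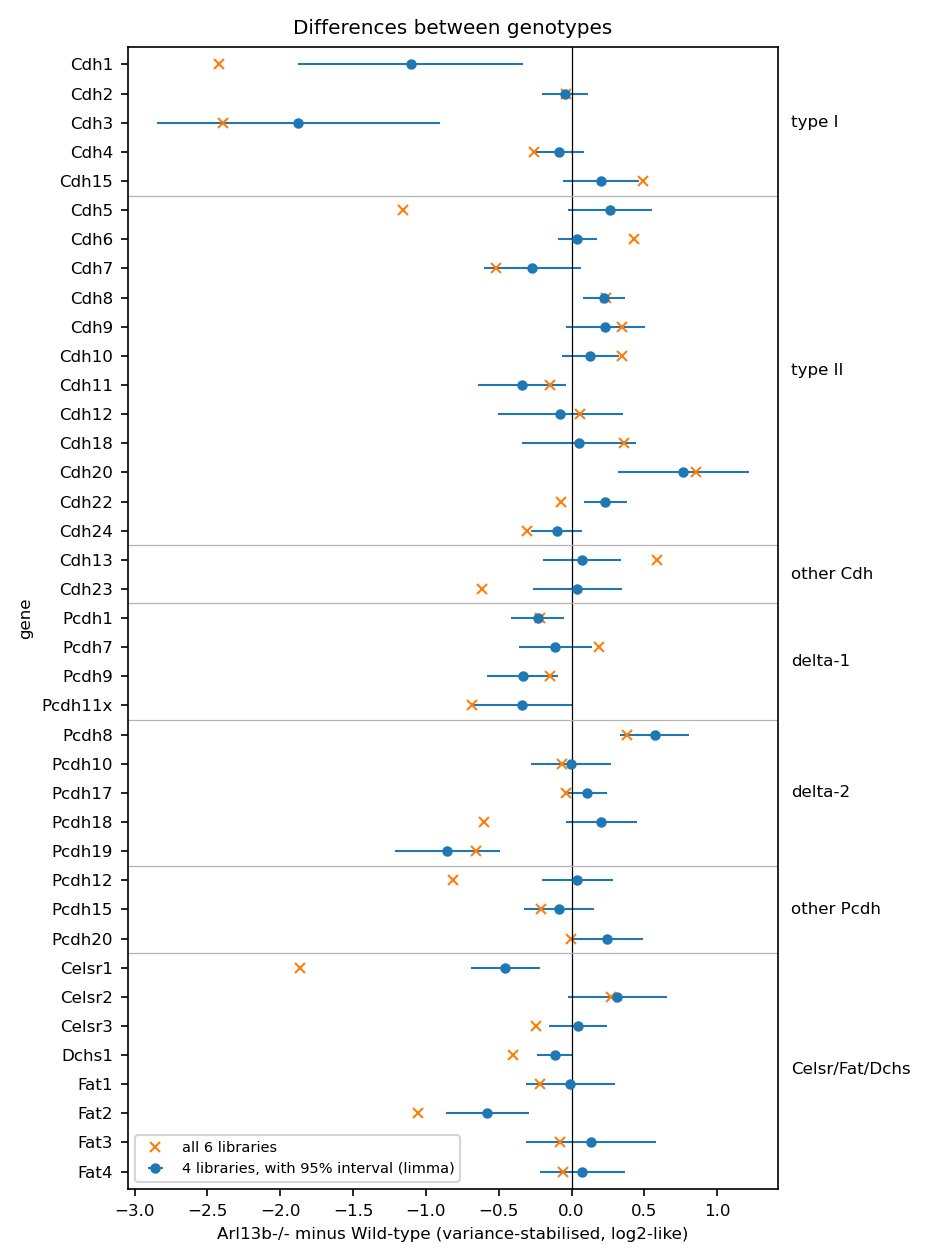
Difference of each tested member between Arl13b-/- and Wild-type, in variance-stabilised units, by class. Blue circles with 95% intervals from limma are the 4 libraries and orange crosses all 6; Cdh3, Cdh1, Fat2 and Pcdh19 lie farthest below 0 and Cdh20 and Pcdh8 farthest above 0 over 4 libraries.

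E- and P-cadherin, the adhesion molecules of epithelia, were lower in the Arl13b-/- libraries, and N- and R-cadherin of the neural tissue were not separated. Cdh1, which encodes E-cadherin, had 204, 0 and 179 normalized counts in Arl13b-/- 1 to 3, against 1085, 706 and 326 in Wild-type 1 to 3. Cdh3, which encodes P-cadherin, had 92.1, 0 and 33.3 in Arl13b-/- 1 to 3, against 308, 537 and 242 in Wild-type 1 to 3. For both genes every Arl13b-/- library lay below every Wild-type library, and both are listed at 0 in Arl13b-/- 2. Over 4 libraries Cdh3 differed by -1.88 ± 0.39 (SE, n = 2 each; limma, adjusted p = 0.143), a mean count 6.21-fold lower, and Cdh1 by -1.11 ± 0.31 (adjusted p = 0.218), a mean count 2.69-fold lower. Without Arl13b-/- 1, Cdh3 differed by -2.27 and passed in limma (adjusted p = 0.0247, the lowest of its alternatives, which reached 0.532). Over 6 libraries the differences were -2.39 ± 0.60 for Cdh3 and -2.42 ± 0.90 for Cdh1 (SE, n = 3 each; limma, adjusted p = 0.990 for both). The exact two-sided permutation p was 0.1 for each gene, the smallest that 3 against 3 can give.

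Surface ectoderm and epithelium markers also had lower sums in the Arl13b-/- libraries. The 16 markers, all of them in the table, summed to between 226 and 891 normalized counts in the Arl13b-/- libraries, against 2173 to 18937 in the Wild-type libraries. The keratins Krt5, Krt8 and Krt15 were at 0 in Arl13b-/- 2, and Krt14 was at 0 in Arl13b-/- 3. Cldn6 and Cldn7 overlapped between the genotypes, with 17.6 and 5.81 in Wild-type 1, against 56.6 and 17.6 in Arl13b-/- 1. The other listed markers were lower in every Arl13b-/- library than in any Wild-type library. Wild-type 1 had the highest sum and the highest Cdh1, but Cdh3 was highest in Wild-type 2. Within the Arl13b-/- libraries the sum did not follow Cdh1. It was 891, 226 and 229 in Arl13b-/- 1 to 3, where Cdh1 was 204, 0 and 179. The part of this tissue in the Cdh1 and Cdh3 values was not tested, and in bulk tissue fewer cells of a type and less RNA per cell cannot be told apart.

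N-cadherin stayed at nearly one level across the libraries. Cdh2, which encodes it, had 11860, 11703 and 11735 normalized counts in Arl13b-/- 1 to 3, against 11821, 11555 and 12841 in Wild-type 1 to 3. Its level hardly moved in the 2 libraries that stood apart, at -0.057 in Arl13b-/- 2 and -0.043 in Wild-type 1, set against the Wild-type 2 and 3 mean. Over 4 libraries it differed by -0.046, with a 95% interval from -0.20 to 0.11 (limma, adjusted p = 0.785). Cdh4, which encodes R-cadherin, had 3438, 4555 and 3159 in Arl13b-/- 1 to 3, against 6943, 3347 and 3653 in Wild-type 1 to 3. The groups overlapped, and the 4-library difference was -0.084 ± 0.068 (SE; limma, adjusted p = 0.631). Cdh15, the M-cadherin of muscle, had 31.3, 202 and 27.7 in Arl13b-/- 1 to 3, against 67.4, 19.8 and 21.2 in Wild-type 1 to 3, and its 4-library difference was 0.20 ± 0.11 (SE; limma, adjusted p = 0.456).

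**Figure D3:**
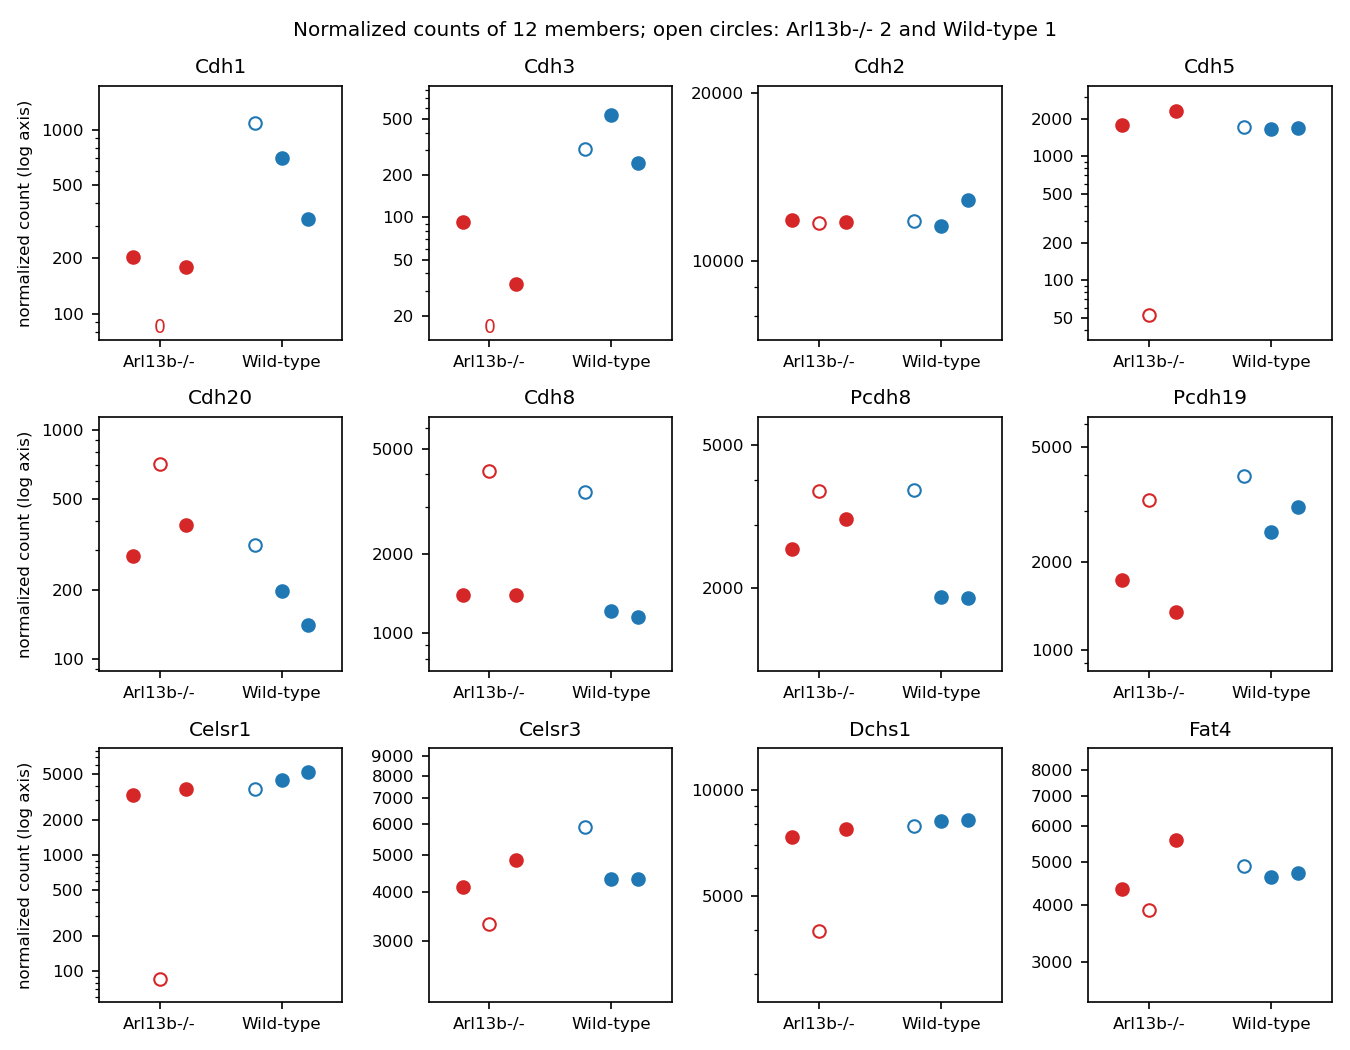
Normalized counts of 12 members by library on log axes, with Arl13b-/- on the left and Wild-type on the right of each panel and replicates 1 to 3 from left to right. Open circles are Arl13b-/- 2 and Wild-type 1 and the digit 0 marks a listed 0; Cdh2 stays between 11555 and 12841 while Cdh1 and Cdh3 separate by genotype.

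Among 12 tested type II cadherins, 8 differences were above 0 and 4 below 0 over 4 libraries, from -0.34 for Cdh11 to 0.77 for Cdh20, and none passed. Cdh20 had 280, 711 and 385 normalized counts in Arl13b-/- 1 to 3, against 316, 198 and 141 in Wild-type 1 to 3. Wild-type 1 lay between the Arl13b-/- values, while Wild-type 2 and 3 lay below all of them. Over 4 libraries Cdh20 differed by 0.77 ± 0.18 (SE; limma, adjusted p = 0.172), a mean count 1.96 times that of Wild-type 2 and 3. Without Arl13b-/- 1 it differed by 0.96 and passed in limma (adjusted p = 0.0338, with other alternatives up to 0.545). Over 6 libraries the difference was 0.85 ± 0.41 (SE; limma, adjusted p = 0.990).

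Cdh8, which is expressed in subsets of cortical and striatal neurons, had 1392, 4114 and 1396 normalized counts in Arl13b-/- 1 to 3, against 3418, 1220 and 1149 in Wild-type 1 to 3. Arl13b-/- 1 and 3 lay close together and above Wild-type 2 and 3, with a 4-library difference of 0.22 ± 0.058 (SE; limma, adjusted p = 0.199). Over 6 libraries the groups overlapped and the difference was 0.24 ± 0.61 (SE; limma, adjusted p = 0.990). Arl13b-/- 2 and Wild-type 1, the libraries with the highest summed counts of maturing neuron markers, had the highest Cdh8. Cdh22 had 1232, 596 and 1239 in Arl13b-/- 1 to 3, against 1001, 1013 and 1073 in Wild-type 1 to 3. It was higher in Arl13b-/- 1 and 3 by 0.23 ± 0.059 (SE; limma, adjusted p = 0.196) but lowest of all in Arl13b-/- 2, and the 6-library difference was -0.075 ± 0.32 (adjusted p = 0.990).

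Cdh11, a cadherin of mesenchyme that is also found in the developing brain, had 3725, 3602 and 3362 normalized counts in Arl13b-/- 1 to 3, against 3046, 5072 and 3989 in Wild-type 1 to 3. The 4-library difference was -0.34 ± 0.12 (SE; limma, adjusted p = 0.300), and Wild-type 1 was the lowest of the 6 libraries. With all 6 libraries it differed by -0.15 ± 0.23 (SE; limma, adjusted p = 0.990). The 14 meningeal and head mesenchyme markers summed to 37215 and 42570 in Arl13b-/- 1 and 3, against 81882 and 45709 in Wild-type 2 and 3. Of the Wild-type 2 sum, 24398 was Col1a1. Foxc1 and Foxc2 were higher in Arl13b-/- 1 and 3. Col3a1, Pdgfra, Foxd1, Tbx18 and Zic1 overlapped between the pairs, and the rest were lower. Cdh11 was 3602 in Arl13b-/- 2, where these markers summed to 690 and Foxc2 and Foxd1 were at 0. The part of these markers in the Cdh11 values was not tested. Cdh6, which marks regions of the cortex and ganglionic eminence in the mouse embryo, had 1319, 3455 and 1290 in Arl13b-/- 1 to 3, against 1463, 1253 and 1281 in Wild-type 1 to 3. Its 4-library difference of 0.040 had a 95% interval from -0.094 to 0.17 (limma, adjusted p = 0.776).

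Cdh5, which encodes the VE-cadherin of blood vessels, had 1794, 52.4 and 2300 normalized counts in Arl13b-/- 1 to 3, against 1725, 1659 and 1696 in Wild-type 1 to 3. Over 4 libraries it differed by 0.27 ± 0.12 (SE; limma, adjusted p = 0.376), without Arl13b-/- 1 by 0.44, which passed (limma, adjusted p = 0.0185), and without Arl13b-/- 3 by 0.094 (adjusted p = 0.672). Its adjusted p reached 0.763 among the alternatives. The summed count of the 14 endothelial markers gave the same order between the 2 pairs. It was 8624 and 10362 in Arl13b-/- 1 and 3, 7800 and 8040 in Wild-type 2 and 3, and 9695 in Wild-type 1. Tek, Tie1, Cldn5, Erg and Egfl7 overlapped between the pairs, and the other listed markers were higher in Arl13b-/- 1 and 3. In Arl13b-/- 2 the markers summed to 1826, with none at 0, but Plvap was at its highest there, with 761. Pcdh12, a protocadherin of endothelium, had 305, 9.16 and 307 in Arl13b-/- 1 to 3, against 268, 271 and 322 in Wild-type 1 to 3. It shared the low value in Arl13b-/- 2, and its 4-library difference was 0.041 ± 0.098 (SE; limma, adjusted p = 0.886). The part of endothelial cells in these values was not tested.

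Cdh7, Cdh9, Cdh10, Cdh12, Cdh18 and Cdh24, the other tested type II genes, had 4-library differences between -0.27 for Cdh7 and 0.23 for Cdh9, and none had an unadjusted p under 0.05. Cdh9, Cdh10, Cdh12 and Cdh18 were at least 2.21 above the Wild-type 2 and 3 mean in Arl13b-/- 2 and at least 1.42 above it in Wild-type 1. Cdh13, the membrane-anchored T-cadherin, had the widest such excess among the tested members. It had 543, 14609 and 676 normalized counts in Arl13b-/- 1 to 3, against 4701, 577 and 568 in Wild-type 1 to 3. Among the 4 libraries it differed by only 0.074 ± 0.11 (SE; limma, adjusted p = 0.797). Cdh23, a tip-link cadherin of hair cells, had 42.5, 6.53 and 58.0 in Arl13b-/- 1 to 3, against 140, 49.7 and 45.0 in Wild-type 1 to 3, with a 4-library difference of 0.038 ± 0.12 (adjusted p = 0.917).

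All 4 delta-1 protocadherins had a 4-library difference below 0, although that of Pcdh7 turned with 1 library left out, and none passed. Pcdh9 had 667, 3318 and 694 normalized counts in Arl13b-/- 1 to 3, against 2834, 799 and 960 in Wild-type 1 to 3, and differed by -0.34 ± 0.097 (SE; limma, adjusted p = 0.232). Pcdh1 had 707, 2352 and 645 in Arl13b-/- 1 to 3, against 2692, 788 and 822 in Wild-type 1 to 3, and differed by -0.23 ± 0.072 (SE; limma, adjusted p = 0.259). For both genes Arl13b-/- 1 and 3 lay just below Wild-type 2 and 3, while Arl13b-/- 2 and Wild-type 1 were both far higher. Over 6 libraries the groups overlapped for both, with differences of -0.15 ± 0.77 for Pcdh9 and -0.22 ± 0.68 for Pcdh1 (SE; limma, adjusted p = 0.990 for both). Pcdh11x, on the X chromosome, had 227, 674 and 213 in Arl13b-/- 1 to 3, against 1844, 252 and 342 in Wild-type 1 to 3, and differed by -0.34 ± 0.14 over 4 libraries (SE; limma, adjusted p = 0.352). Pcdh7, the remaining gene of this class, differed by -0.11 ± 0.10 (SE; limma, adjusted p = 0.666), and by 0.026 without Arl13b-/- 1.

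The 2 members with the smallest p over 4 libraries were delta-2 protocadherins that differed in opposite directions, Pcdh8 and Pcdh19. Pcdh8, known in the frog embryo as paraxial protocadherin and in rat neurons as arcadlin, had 2572, 3729 and 3123 normalized counts in Arl13b-/- 1 to 3, against 3744, 1895 and 1878 in Wild-type 1 to 3. Wild-type 2 and 3 were nearly equal and lay below the other 4 libraries, and Wild-type 1 was the highest of all. Over 4 libraries Pcdh8 differed by 0.57 ± 0.094 (SE; limma, adjusted p = 0.101), a mean count 1.51 times that of Wild-type 2 and 3. Without Arl13b-/- 1 it differed by 0.71 and passed in limma (adjusted p = 0.00384, with other alternatives up to 0.456). Over 6 libraries the difference was 0.38 ± 0.33 (SE; limma, adjusted p = 0.990), and with library weights, whose estimation did not converge, it was 0.70 and passed (limma, adjusted p = 0.0430).

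Pcdh19, an X-linked gene whose loss causes an epilepsy of girls in humans, had 1735, 3289 and 1346 normalized counts in Arl13b-/- 1 to 3, against 3972, 2545 and 3115 in Wild-type 1 to 3. Arl13b-/- 1 and 3 were below the other 4 libraries, and Arl13b-/- 2 lay among the Wild-type values. Over 4 libraries it differed by -0.85 ± 0.14 (SE; limma, adjusted p = 0.104), a mean count 1.84-fold lower. Without Arl13b-/- 1 it differed by -1.03 and passed in limma (adjusted p = 0.00812, with other alternatives up to 0.474), and over 6 libraries it differed by -0.66 ± 0.37 (limma, adjusted p = 0.990). Of the libraries with high Xist, Arl13b-/- 1 and 3 had the lowest Pcdh19 and Pcdh11x and Wild-type 1 the highest.

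The letters before the start of transcription are shown for Pcdh8 and Pcdh19 and for Cdh20, the type II cadherin with the largest difference. They are the 250 bases upstream of the start in RefSeq, build GRCm38.p6, from chr14:79771313-79771562 on the minus strand, chrX:133688994-133689243 on the minus strand and chr1:104768270-104768519 on the plus strand. Capitals mark CCAAT or its reverse complement ATTGG, and TATAAA or its reverse complement TTTATA.
Pcdh8: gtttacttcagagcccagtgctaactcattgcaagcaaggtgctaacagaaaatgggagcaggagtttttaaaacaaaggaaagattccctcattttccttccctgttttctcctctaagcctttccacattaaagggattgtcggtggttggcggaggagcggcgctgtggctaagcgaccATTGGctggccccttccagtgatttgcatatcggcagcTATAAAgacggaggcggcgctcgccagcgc
Pcdh19: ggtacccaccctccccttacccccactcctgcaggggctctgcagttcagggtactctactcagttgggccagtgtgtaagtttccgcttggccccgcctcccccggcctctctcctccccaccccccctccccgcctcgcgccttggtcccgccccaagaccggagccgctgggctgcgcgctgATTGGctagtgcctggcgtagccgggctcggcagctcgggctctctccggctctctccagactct
Cdh20: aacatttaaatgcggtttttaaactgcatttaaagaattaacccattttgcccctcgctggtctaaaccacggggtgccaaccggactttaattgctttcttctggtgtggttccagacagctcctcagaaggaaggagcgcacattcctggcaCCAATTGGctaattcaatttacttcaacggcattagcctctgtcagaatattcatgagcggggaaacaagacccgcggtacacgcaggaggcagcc
All 3 hold CCAAT on one strand or the other, with 2 overlapping matches in Cdh20, and Pcdh8 also holds TATAAA. The Pcdh19 window is the richest of the 3 in G and C, at 69.2%, against 51.2% for Pcdh8 and 47.6% for Cdh20. Of 28 members with a RefSeq window, 14 hold CCAAT on either strand, beside 34.5% of all 27025 windows of the same length. TATAAA, also searched on both strands, is in 2 (7.14%), beside 13.0%. GACCACCCA, the letters of a GLI site, was searched on both strands, is in 0.211% of all windows and is in none of the 28, which says only that these letters are not in these windows.

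Of the other delta-2 protocadherins, Pcdh10, which guides axons through the ventral telencephalon in the mouse, had 3062, 7058 and 2446 normalized counts in Arl13b-/- 1 to 3, against 7977, 2654 and 2850 in Wild-type 1 to 3. Its 4-library difference was -0.0067, with a 95% interval from -0.28 to 0.27 (limma, adjusted p = 0.983). Pcdh17, found on growing axons and at synapses, had 1206, 3863 and 1209 in Arl13b-/- 1 to 3, against 4913, 1110 and 1120 in Wild-type 1 to 3. Its counts nearly coincided within Arl13b-/- 1 and 3 and within Wild-type 2 and 3, and the 4-library difference was 0.11 ± 0.053 (SE; limma, adjusted p = 0.433). Pcdh18 had 3139, 342 and 3832 in Arl13b-/- 1 to 3, against 1815, 3054 and 2944 in Wild-type 1 to 3. It was low where Pcdh10 and Pcdh17 were high, in Arl13b-/- 2 and Wild-type 1, and the 4-library difference of 0.21 ± 0.097 (SE; limma, adjusted p = 0.417) became 0.35 without Arl13b-/- 1, which passed (adjusted p = 0.0312), and 0.065 without Arl13b-/- 3 (adjusted p = 0.760). Its adjusted p reached 0.789 among the alternatives.

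Pcdh20 had 112, 310 and 105 normalized counts in Arl13b-/- 1 to 3, against 461, 88.7 and 78.1 in Wild-type 1 to 3, with a 4-library difference of 0.24 ± 0.10 (SE; limma, adjusted p = 0.361). Pcdh15, the partner of Cdh23 in the tip link, had 85.0, 237 and 77.5 in Arl13b-/- 1 to 3, against 350, 90.1 and 89.0 in Wild-type 1 to 3, with a difference of -0.087 ± 0.096 (adjusted p = 0.733). Both were highest in Wild-type 1 and next highest in Arl13b-/- 2.

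The Celsr genes did not share a direction over 4 libraries. Celsr1, which is expressed in dividing progenitors, had 3330, 86.3 and 3742 normalized counts in Arl13b-/- 1 to 3, against 3742, 4494 and 5265 in Wild-type 1 to 3. Arl13b-/- 1 and 3 lay below Wild-type 2 and 3, with a difference of -0.45 ± 0.095 (SE; limma, adjusted p = 0.143) and a mean count 1.38-fold lower. Wild-type 1 and Arl13b-/- 3 had practically the same count, and Arl13b-/- 2, where radial glia and cell cycle markers summed to 4442, was lowest, at -5.06 from the Wild-type 2 and 3 mean. The sum of those markers in Arl13b-/- 1 and 3 was 161123 and 183584, against 147703 and 152849 in Wild-type 2 and 3. Over 6 libraries Celsr1 differed by -1.87 ± 1.29 (SE; limma, adjusted p = 0.990).

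Celsr3, of postmitotic neurons and required for forebrain axon tracts, had 4127, 3320 and 4838 normalized counts in Arl13b-/- 1 to 3, against 5901, 4321 and 4337 in Wild-type 1 to 3. The groups overlapped, and the 4-library difference of 0.045 had a 95% interval from -0.16 to 0.25 (limma, adjusted p = 0.838). Celsr2, present in progenitors and neurons, differed by 0.31 ± 0.14 (SE; limma, adjusted p = 0.376) over 4 libraries, where both Arl13b-/- libraries were above both Wild-type libraries. Without Arl13b-/- 1 the Celsr2 difference was 0.52 and passed in limma (adjusted p = 0.0103), and without Arl13b-/- 3 it was 0.11 (adjusted p = 0.624). Its adjusted p reached 0.780 among the alternatives.

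Fat4 and Dchs1, which encodes its ligand, had small differences among the 4 libraries. Dchs1 had 7352, 3987 and 7755 normalized counts in Arl13b-/- 1 to 3, against 7883, 8144 and 8232 in Wild-type 1 to 3. It was lower in every Arl13b-/- library than in any Wild-type library, with a difference of -0.12 ± 0.048 over 4 libraries (SE; limma, adjusted p = 0.364) and of -0.40 ± 0.29 over 6 (adjusted p = 0.990), with an exact two-sided permutation p of 0.1, the smallest that 3 against 3 can give. Fat4 had 4343, 3895 and 5584 in Arl13b-/- 1 to 3, against 4899, 4624 and 4720 in Wild-type 1 to 3, and its 4-library difference of 0.075 had a 95% interval from -0.22 to 0.37 (limma, adjusted p = 0.809).

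Fat3, a giant cadherin known for shaping the dendrites of amacrine cells, had 2940, 2268 and 4321 normalized counts in Arl13b-/- 1 to 3, against 3243, 3050 and 3460 in Wild-type 1 to 3, with a 4-library difference of 0.13 ± 0.18 (SE; limma, adjusted p = 0.781). Arl13b-/- 3 was the highest of the 6 libraries for both Fat3 and Fat4. Fat2, of cerebellar granule cells and of epithelia, had 4.39, 7.85 and 3.09 in Arl13b-/- 1 to 3, against 160, 21.2 and 17.4 in Wild-type 1 to 3. Outside Wild-type 1 these are few reads, and Fat2 entered the test only because Wild-type 1 raised its mean over the filter. Its differences, -0.58 over 4 libraries and -1.05 over 6, are given as a description with no p. Fat1 differed by -0.0075 ± 0.12 over 4 libraries (SE; limma, adjusted p = 0.983), with either sign when 1 library was left out.

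Departures of the members were many in Arl13b-/- 2 and Wild-type 1 and few in the other libraries. Measured from the Wild-type 2 and 3 mean, 16 of the 39 tested members lay more than 1 log2 unit above in Arl13b-/- 2. In the same library 9 lay more than 1 below, and in Wild-type 1 17 lay above and 0 below. The 17 include Fat2, at 1.63, which passed the filter only through its Wild-type 1 value, so its place in that count was set by the filter. Of all genes tested, 21.0% lay more than 1 above and 25.5% more than 1 below in Arl13b-/- 2, and 12.2% and 6.55% did so in Wild-type 1. In Arl13b-/- 1 and 3, 2 and 3 members lay more than 1 below and 0 above. Of all genes, 0.674% lay more than 1 below and 0.119% above in Arl13b-/- 1, and 1.21% below and 0.737% above in Arl13b-/- 3. In both Arl13b-/- 2 and Wild-type 1, 13 members were more than 1 above: Cdh8, Cdh9, Cdh10, Cdh12, Cdh13, Cdh18, Pcdh1, Pcdh7, Pcdh9, Pcdh10, Pcdh11x, Pcdh17 and Pcdh20. They are 33.3% of the 39, beside 9.12% of all genes tested. The 2 values of a gene share their baseline, so this count is a description. The maturing neuron markers had higher sums in the same 2 libraries. Of that list, Gad1, Gad2 and Slc17a6 were at their lowest in Arl13b-/- 2, with 231, 131 and 1208 normalized counts. The part of these markers in the count of 13 members was not tested.

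**Figure D4:**
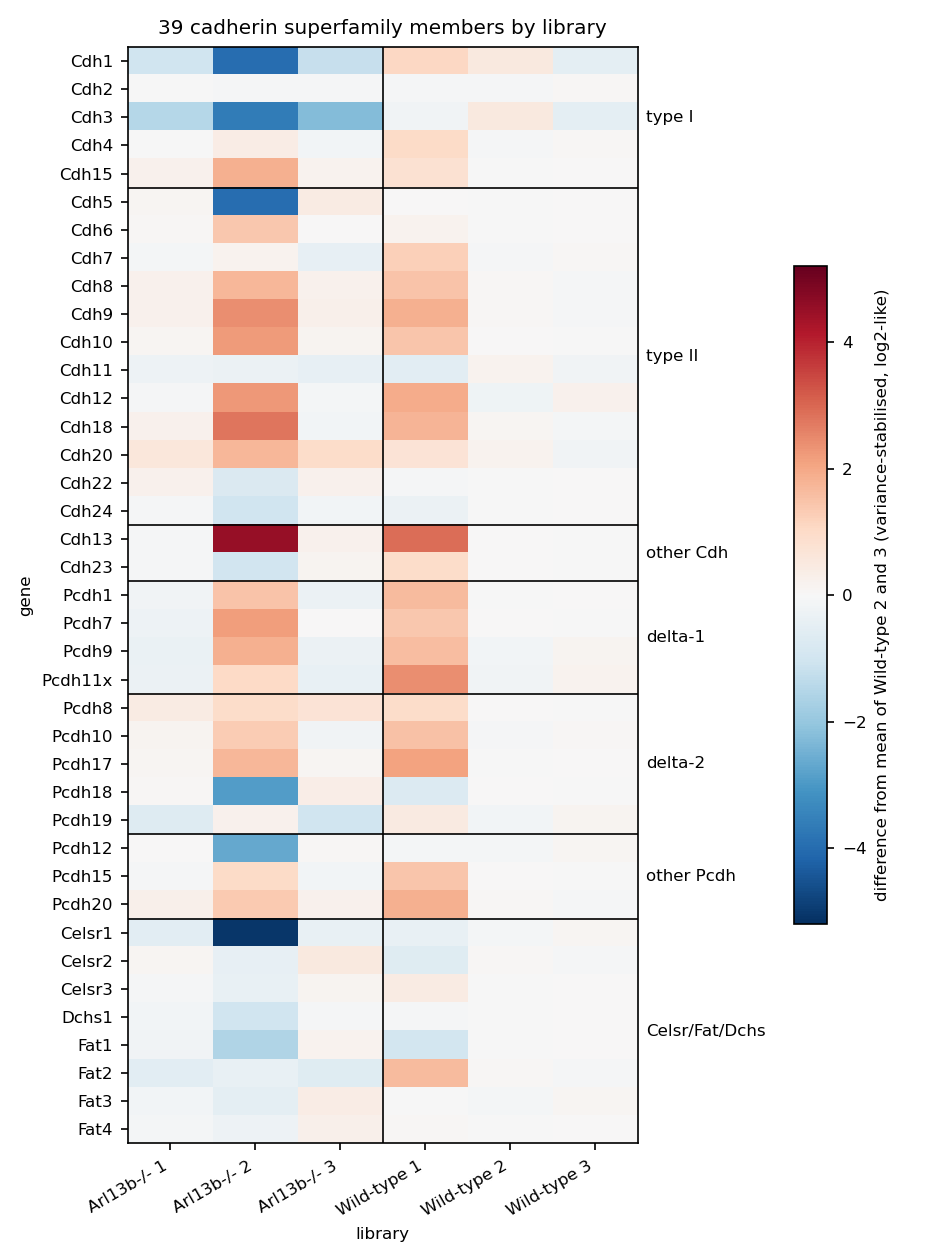
Difference of each tested member in each library from the Wild-type 2 and 3 mean, in variance-stabilised units, with members grouped by class and Arl13b-/- libraries left of Wild-type libraries. Columns Arl13b-/- 2 and Wild-type 1 carry the strongest colours, from -5.06 for Celsr1 to 4.52 for Cdh13, both in Arl13b-/- 2.

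Genes whose products act with these cadherins were read from 3 lists. Of 18 planar cell polarity partners, all tested, 1 passed over 4 libraries, beside 0.253% of all genes. It was Ror2, a Wnt5a receptor, which was lower in Arl13b-/- 1 and 3 than in Wild-type 2 and 3. At an unadjusted limma p under 0.05 over 4 libraries 3 of the 18 were higher and 5 lower, beside 8.08% and 6.33% of all genes. Ror2 had 495, 82.5 and 439 normalized counts in Arl13b-/- 1 to 3, against 252, 1029 and 1110 in Wild-type 1 to 3. Its 4-library difference was -1.09 ± 0.082 (SE, n = 2 each; limma, adjusted p = 0.0269), but Wild-type 1 was below Arl13b-/- 1 and 3, and the 6-library difference of -1.11 ± 0.76 did not pass (adjusted p = 0.990). The call ended without Wild-type 2 (-1.14, limma adjusted p = 0.135), without Wild-type 3 (-1.04, adjusted p = 0.121), without the filter (adjusted p = 0.232) and without the mean-variance trend (adjusted p = 0.0618). In the same 4 libraries the dorsal markers given above also had lower sums in Arl13b-/- 1 and 3, and the diencephalic ones higher sums. The 12 cortical hem and choroid plexus markers had lower sums there too, 7519 and 7831, against 10211 and 11398 in Wild-type 2 and 3. Of these 12, Otx2 was higher, with 3411 and 4051 against 2600 and 3028, Lmx1a overlapped and the rest were lower. Wild-type 1, where Ror2 was 252, had a hem and choroid plexus sum of 29281, of which 25702 was Ttr. The part of these markers in the Ror2 difference was not tested. Ankrd6, a polarity regulator, had 2184, 1347 and 2427 in Arl13b-/- 1 to 3, against 2010, 1951 and 1827 in Wild-type 1 to 3, and differed by 0.28 ± 0.070 (SE; limma, adjusted p = 0.196). Without Arl13b-/- 1 it differed by 0.35 and passed (limma, adjusted p = 0.0482, with other alternatives up to 0.537). The receptor Fzd6 differed by -0.25 ± 0.079 over 4 libraries (adjusted p = 0.259).

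Catenins and other cadherin partners did not pass, with 0 of 15 tested genes called in either comparison and 4-library differences from -0.24 to 0.14. At an unadjusted limma p under 0.05 over 4 libraries 0 were higher and 2 lower, beside 8.08% and 6.33% of all genes. Jup, which encodes plakoglobin, had 1691, 3676 and 1688 normalized counts in Arl13b-/- 1 to 3, against 5369, 2156 and 1876 in Wild-type 1 to 3, and differed by -0.24 ± 0.076 (SE; limma, adjusted p = 0.259). Ctnnd2, the neural delta-catenin, differed by -0.16 ± 0.060 (adjusted p = 0.318) and the adhesion gene Nectin1 by 0.14 ± 0.061 (adjusted p = 0.379). Of 9 genes of the WAVE actin complex, which binds some delta-2 protocadherins, 0 passed, and the number at an unadjusted limma p under 0.05 was also 0. Their 4-library differences ran from -0.083 for Wasf2 to 0.089 for Wasf1, with 0.063 for Abi1 (limma, adjusted p = 0.590, 0.441 and 0.593).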

How the data were processed

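Poly(A) RNA-seq was made from 6 libraries, 3 per genotype, with groups taken from the labels. Its values, deposited by the authors in a single table, are variance-stabilised counts on a log2 scale, from 5.13 to 18.39. The submitters' processing notes name build mm9 and, in no stated role or order, CASAVA, STAR 2.6.0, Salmon 0.9.1, DESeq2 and DESeq 1.16.1; the annotation is not stated there. The lowest value, shared by all libraries, was taken as a count of 0 to invert the transformation; between 69.3% and 78.8% of values under 30 reads then lay within 0.05 of whole reads, too few for a count test. Genes with a mean at least 1 above the lowest value were tested with limma 3.58.1 (R 4.3.3), with the variance moderated along the mean and p-values adjusted (Benjamini-Hochberg) over 14249 genes at 0.05, two-sided; the code was tested on simulated data. A difference of variance-stabilised values understates the change of low genes. Members, lists, the 4 libraries and the rule for named genes were chosen with earlier results of these data known. The rule gives library values for members past the threshold, the 3 with the smallest 4-library p in each class and 16 fixed genes; Celsr2, Fat1, Pcdh7, Cdh7, Cdh9, Cdh10, Cdh12, Cdh18 and Cdh24, outside it, are named by their differences. A 6-library difference is given for members with an unadjusted p under 0.05 in either comparison or with groups that do not overlap over 6 libraries. RefSeq windows were matched by symbol. Alternatives were other filters, normalizations, moderation and library weights, a replicate block, inverted counts plus 1 and each library left out. Figures used matplotlib 3.10.9.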

Additional observations from a re-analysis of the deposited data

How the results depend on the processing

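Over 6 libraries the number of genes called was 0, but 3 with no filter, 214 with library weights and 110 with weights estimated gene by gene, a setting added after the values were seen; the first weights did not reach convergence. Between 0 and 4 genes were called when 1 library was left out. Of the members, 1 was called with library weights, Pcdh8. Over 4 libraries 36 genes were called, but 1 with no filter, 59 with quantile normalization, 7 without the trend and 98 with robust moderation, and between 6 and 725 with 1 library left out. The members called were then between 0 and 7, and the 7 were found without Arl13b-/- 1, the setting that called 725 genes. The members' 6-library median was between -0.33 and 0.061 with 1 library left out, 0.053 with library weights and 0.016 with gene-by-gene weights. The 4-library median was -0.0009 with quantile normalization and between -0.047 and 0.044 with 1 library left out. Some uncalled signs turned. With library weights Cdh22 differed by 0.24 over 6 libraries, and by 0.23 with gene-by-gene weights, and Celsr3 differed by -0.0009 over 4 libraries with quantile normalization. With 1 library left out, 6-library differences ran from -0.33 to 0.029 for Cdh11, from -0.24 to 0.25 for Cdh22, from -0.27 to 0.73 for Cdh8, from -0.79 to 0.34 for Pcdh1 and from -0.88 to 0.39 for Pcdh9. The 4-library differences ran from -0.069 to 0.22 for Cdh13, from -0.12 to 0.030 for Cdh2, from -0.077 to 0.15 for Cdh23, from -0.068 to 0.16 for Celsr3, from -0.19 to 0.18 for Fat1, from -0.14 to 0.40 for Fat3, from -0.10 to 0.25 for Fat4, from -0.16 to 0.15 for Pcdh10, from -0.062 to 0.14 for Pcdh12 and from -0.25 to 0.026 for Pcdh7. The cause of these changes was not tested. Fits without 1 of the 4 libraries set 1 library against 2 and assume that it varies like the pair.

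With the replicate number as a block, 0 genes and 0 members were called over 6 libraries. The numbers are not stated to pair the libraries, and the deviations of same-numbered libraries correlated at -0.71, -0.71 and 0.62 across genes. The 4 libraries share only 1 number, so no block could be fitted there. Depth limits the low members, above all Fat2, which had between 3.09 and 21.2 normalized counts in the 4 libraries. Cdh15 had between 19.8 and 31.3 there, and Cdh23 between 42.5 and 58.0.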
